A study of Mus musculus with 96 samples.

Results

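The genes described are 10 that build the phospholipids of the endoplasmic reticulum (ER) membrane or serve as partners of the cytochromes P450 that sit in it: Chka, Pcyt1a, Pcyt2, Pemt, Cept1, Chpt1, Cyb5a, Cyb5r3, Pgrmc1 and Pgrmc2. They were chosen by name, and all 10 were measured, out of 18193 genes on the arrays. The array annotation assigned probe sets to genes, and each gene is represented by its brightest probe set, judged by the mean of the 96 arrays. Liver RNA of CD-1 mice, an outbred stock, was hybridised to 96 arrays. Mice of both sexes were given PB in their food for 7 days or for 2. The doses were 0.15 and 1.5 mg/kg-day, then 15, 75 and finally 150, and mice at dose 0 are the controls. Sex, day and dose make 24 groups, of 4 arrays each. Doses carry the unit of the study's design text; the titles write ppm after those numbers, and the files do not settle which holds. The labels give neither the age of the mice nor say that every array comes from its own mouse, so every test measures the spread between these arrays, which may be technical. In bulk liver RNA, fewer cells of a type and less RNA per cell cannot be told apart.

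The labels do not spell out PB; in work on the nuclear receptor CAR, which the series title names, it commonly stands for phenobarbital. Phenobarbital is the textbook agent that expands the smooth ER of hepatocytes, the membrane system that carries the drug-metabolising P450 enzymes. That membrane is made largely of phosphatidylcholine and phosphatidylethanolamine. Choline is phosphorylated by choline kinase, activated by linkage to a nucleotide and joined to diacylglycerol by a phosphotransferase, and liver can also methylate phosphatidylethanolamine to phosphatidylcholine. A P450 needs electrons, mostly from its reductase, and for some reactions cytochrome b5 supplies an electron, itself reduced by cytochrome b5 reductase. Pgrmc1 is a heme-binding protein of the ER membrane that is known to bind P450 enzymes.

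Values are log2 expression, normalised between arrays by the authors. Array medians ran from 5.35 to 5.44 and array maxima from 14.86 to 14.97, and the lowest value of any of the 10 genes was 6.77. Cyb5a and Pgrmc1 lay near the top of that range, at 13.64 to 14.04 and 13.63 to 14.00. A gene was called where limma gave a Benjamini-Hochberg adjusted p under 0.05 over all 18193 genes. As a check of the exposure, Cyp2b10, the P450 gene most used as a readout of CAR, was 54.9-fold higher at 150 than at 0 over the 4 combinations of sex and day. Array 1 of the males given 15 for 2 days had a Cyp2b10 level of 13.66, against 11.07 to 11.29 in the other 3 arrays of its group. Array 1 of the males given 75 for 2 days had 10.98, against 13.19 to 13.36 in its group. These libraries go against their labels; with both left out, the number of the 10 genes called was the same in every comparison.

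At 150 mg/kg-day Cyb5a and Pgrmc1 rose and Chka fell, while the other 7 genes were not called in any single sex and day. Cyb5a and Pgrmc1 rose in both sexes on both days, by 1.11-fold to 1.22-fold. Chka, choline kinase alpha, the enzyme of the first step of phosphatidylcholine synthesis, fell 1.86-fold in females and 1.87-fold in males on day 7. In females on day 2, 2 of the 10 genes were called higher, where 3.32% of all genes were, and 0 lower, against 2.14% of all genes. On day 7, 2 were called higher in females (1.52% of all genes) and 1 lower (0.923%). Male livers had 2 genes called higher on day 2 (2.5% of all genes) and 0 lower (2.4%), and on day 7, 2 were called higher (2.2%) and 1 lower (0.835%).

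**Figure D1:**
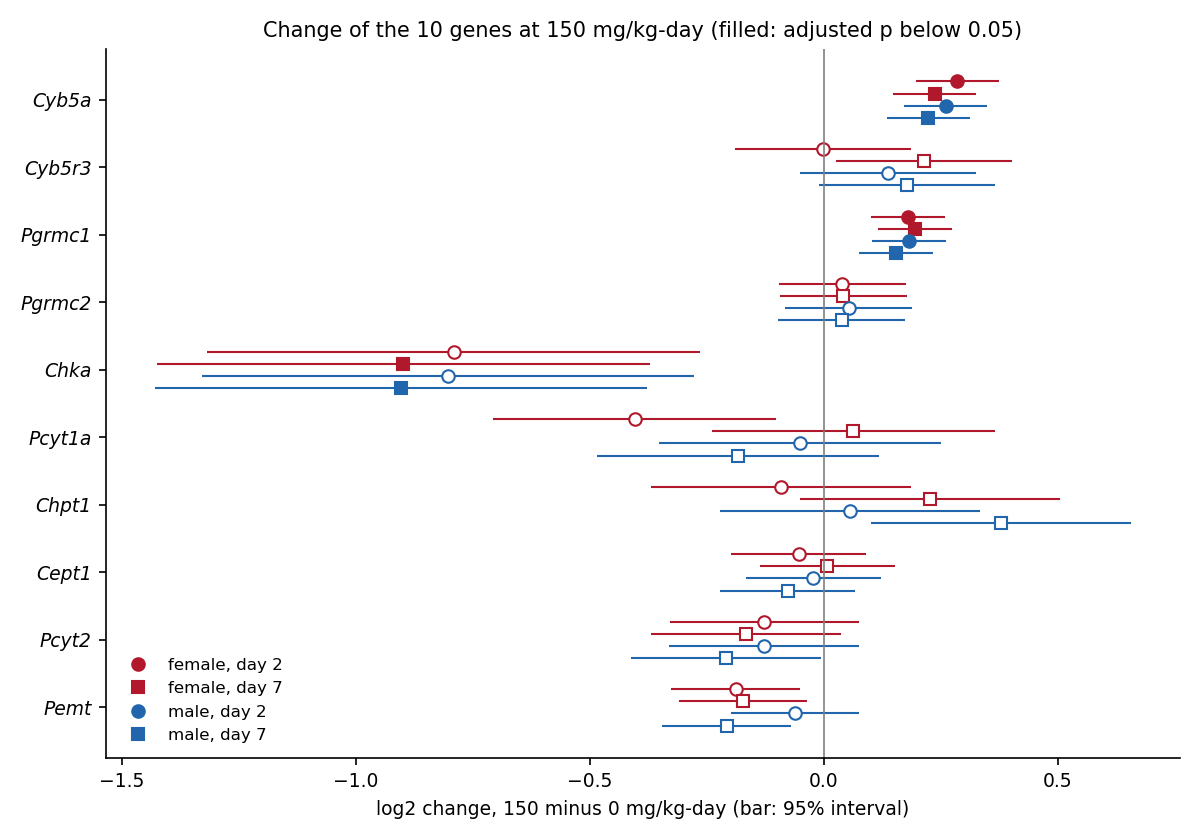
Log2 change at 150 minus 0 mg/kg-day (horizontal axis) of the 10 genes (rows), with 95% intervals from limma, for females (red) and males (blue) on day 2 (circles) and day 7 (squares); filled symbols had an adjusted p under 0.05. Cyb5a and Pgrmc1 lie right of 0 in all 4 comparisons with short intervals, and Chka lies left of 0, between -0.90 and -0.79, with wide ones.

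Cyb5a encodes cytochrome b5, the small electron carrier of the ER membrane. Its levels in females on day 2 were 13.95, 13.96, 14.01 and 13.93 at 150, against 13.69, 13.69, 13.67 and 13.67 at 0. All 4 treated arrays lay above all 4 controls, a log2 change of 0.29 ± 0.045 (SE), or 1.22-fold (limma adjusted p = 2.29e-06). The day 7 females had 13.97, 14.04, 13.99 and 14.00 at 150, against 13.78, 13.78, 13.74 and 13.75 at 0. The groups again did not overlap, with a change of 0.24 (limma adjusted p = 0.000264).

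In males on day 2 Cyb5a stood at 13.87, 13.97, 13.99 and 14.02 at 150, against 13.67, 13.72, 13.69 and 13.72 at 0. On day 7 the males had 13.94, 13.95, 13.91 and 14.04 at 150, against 13.70, 13.76, 13.73 and 13.76 at 0. Every treated male array was above every control of its day. The changes were 0.26 on day 2 (limma adjusted p = 2.8e-05) and 0.22 on day 7 (adjusted p = 0.000546). Cyb5a was called at 150 in every combination of sex and day without any 1 of the 8 arrays compared.

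Cyb5r3 encodes the reductase that passes electrons from NADH to cytochrome b5. Its log2 changes at 150 were -0.001 and 0.21 in females and 0.14 and 0.18 in males on days 2 and 7, with an SE of 0.094 each. None was called, and in all 4 comparisons the treated and control arrays overlapped. Averaged over the 4 comparisons, the change was 0.13 ± 0.047 (SE), 1.10-fold, with a limma adjusted p of 0.0396. That call was lost without any 1 of 18 of the 32 arrays, where the adjusted p ran from 0.0502 to 0.0887. Females on day 7 without control array 1 gave the highest of these. It was also lost with quantile normalisation and with the mean of all probe sets of the gene, with adjusted p up to 0.0821.

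Pgrmc1, the heme-binding P450 partner, moved in the same 4 comparisons as Cyb5a, by somewhat less. Its levels in females on day 2 were 13.98, 13.88, 13.89 and 13.89 at 150, against 13.76, 13.69, 13.78 and 13.70 at 0. The day 7 females had 14.00, 13.91, 13.92 and 13.98 at 150, against 13.77, 13.70, 13.83 and 13.73 at 0. Neither pair of groups overlapped. The changes were 0.18 ± 0.040 (SE) on day 2 (limma adjusted p = 0.00104) and 0.19 on day 7 (adjusted p = 0.000932).

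Pgrmc1 in males on day 2 stood at 13.94, 13.98, 13.97 and 14.00 at 150, against 13.80, 13.79, 13.84 and 13.73 at 0. On day 7 the males had 13.98, 14.00, 13.95 and 13.91 at 150, against 13.82, 13.80, 13.80 and 13.79 at 0. No treated array fell among the controls. The changes were 0.18 on day 2 (limma adjusted p = 0.00122) and 0.15 on day 7 (adjusted p = 0.0128). The day 7 call in males was lost without array 1 at 150 (adjusted p = 0.0583), without array 2 at 150 (0.0671) and under quantile normalisation (0.119).

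Pgrmc2, the close relative of Pgrmc1 and likewise a heme-binding membrane protein, had changes between 0.04 and 0.05 in all 4 comparisons, and was called in none. Its levels at 150 ran from 9.31 to 9.63 and at 0 from 9.20 to 9.62. The mean change was 0.04, with a 95% interval from -0.02 to 0.11, which stops short of the 0.18 measured for Pgrmc1. The difference between these genes was not tested. In females on days 2 and 7 the dimmer probe set of Pgrmc2 showed -0.10 and 0.09. In males it showed -0.06 and -0.04, and none of these changes was called.

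**Figure D2:**
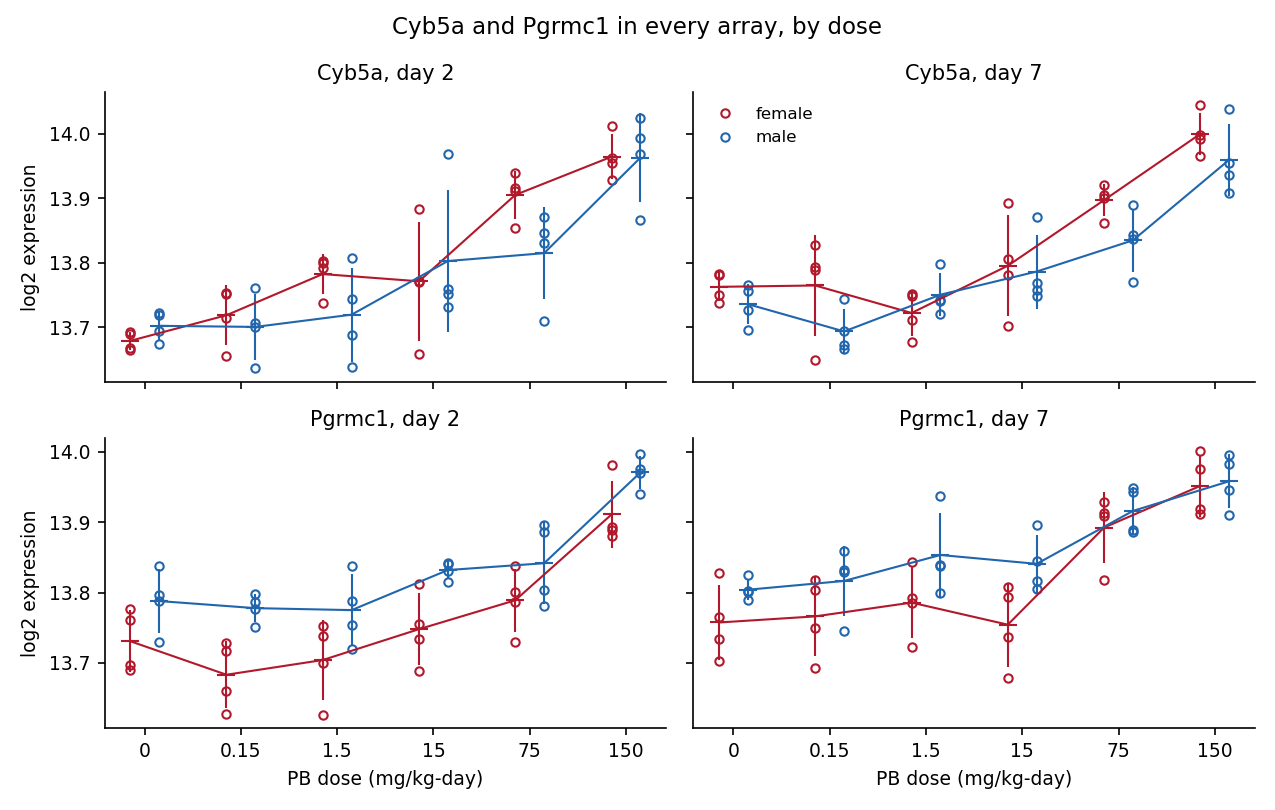
Log2 expression (vertical axis) of Cyb5a (top) and Pgrmc1 (bottom) on each array against dose in mg/kg-day (evenly spaced steps), on day 2 (left) and day 7 (right), females red and males blue; horizontal ticks are means of 4 arrays, bars 1 SD. Means are highest at 150 in both sexes on both days, and the male array at 13.97 at a dose of 15 on day 2 stands above the rest of its group.

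Chka levels varied more than those of the other 9 genes, over 3.39 log2 units between the lowest and highest array. Chka in females on day 7 stood at 7.40, 6.90, 8.09 and 6.77 at 150, against 8.88, 8.09, 7.94 and 7.84 at 0. Array 3 at 150 lay within the range of the controls. The change was -0.90 ± 0.26 (SE), with a limma adjusted p of 0.0465. In males on day 7 the levels were 8.65, 9.15, 8.34 and 9.07 at 150, against 9.93, 9.80, 9.98 and 9.12 at 0. Array 2 at 150 was above the lowest control, and the change was -0.90 (adjusted p = 0.0377).

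The day 2 changes of Chka were of like size and were not called. Females had levels of 8.99, 8.42, 7.40 and 8.35 at 150, against 9.37, 8.81, 9.17 and 8.97 at 0, on day 2, a change of -0.79 (limma adjusted p = 0.0622). In males on day 2 they were 9.38, 9.14, 9.10 and 9.16 at 150, against 9.96, 9.92, 9.95 and 10.16 at 0, a change of -0.80 (adjusted p = 0.0612). The male groups did not overlap, although the call failed. Over the 4 comparisons together Chka fell by 0.85 ± 0.13 (SE) on the log2 scale, 1.80-fold, with a limma adjusted p of 5.24e-07. Its dimmer probe sets, tested among all probe sets, averaged -0.63 (limma adjusted p = 0.0187) and -0.49 (adjusted p = 0.113, not called).

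Both calls on Chka at 150 in a single sex and day lay close to the threshold. The female day 7 call was lost without control array 1 or 2 or without array 1, 2 or 4 at 150, with adjusted p from 0.0644 to 0.275. It was also lost with array medians centred, with every probe set tested, with an intensity trend and robust prior, and with only the same sex and day in the fit. The male day 7 call was lost without control array 1, 2 or 3 or without array 1 or 3 at 150, with adjusted p from 0.084 to 0.14. Leaving out array 1 at 150 in females on day 2 brought the limma adjusted p to 0.0171. Without other single arrays that day 2 change stayed uncalled, with adjusted p up to 0.393. The mean over the 4 comparisons kept its call without any 1 of the 32 arrays, between -0.92 and -0.77.

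Pcyt1a makes CDP-choline, the regulated step that follows choline kinase. It was called in no comparison at 150, with changes of -0.40 and 0.06 in females and -0.05 and -0.18 in males on days 2 and 7 (SE 0.15 each). The female day 2 arrays at 150 split, at 8.21, 9.05, 8.21 and 9.26, against 9.04 to 9.14 at 0. Without array 2 or array 4 at 150 in that group, the change was -0.53 or -0.60, with limma adjusted p of 0.0474 or 0.00767. Without other single arrays it was not called, with changes as small as -0.25 and limma adjusted p up to 0.532.

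Chpt1 is the cholinephosphotransferase that finishes phosphatidylcholine from CDP-choline. Its changes at 150 were -0.09 and 0.23 in females and 0.06 and 0.38 in males on days 2 and 7 (SE 0.14 each). In males on day 7 its levels were 11.86, 11.81, 11.63 and 11.43 at 150, against 11.41, 11.38, 11.10 and 11.33 at 0. These groups did not overlap, but the limma adjusted p was 0.133. Cept1, which has choline and ethanolamine phosphotransferase activity, had changes between -0.08 and 0.01 and a mean of -0.04, with a 95% interval from -0.11 to 0.04.

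Pcyt2 makes CDP-ethanolamine, for phosphatidylethanolamine, and Pemt methylates phosphatidylethanolamine to phosphatidylcholine. Neither was called in a single sex and day. Pcyt2 had changes from -0.21 to -0.13 and Pemt from -0.21 to -0.06, all 8 of them below 0. Averaged over the 4 comparisons, both fell by 0.16 on the log2 scale, 1.12-fold, with limma adjusted p of 0.0204 for Pcyt2 and 0.000314 for Pemt. Pemt levels in females on day 2 were 11.92, 11.77, 11.97 and 11.82 at 150, against 12.19, 11.97, 12.00 and 12.07 at 0, and array 3 at 150 lay among the controls. The male day 7 change of Pemt was -0.21 (limma adjusted p = 0.0822), and it was called without control array 2 or without array 3 or 4 at 150 (adjusted p from 0.0225 to 0.047). Without other single arrays it was not called, with limma adjusted p up to 0.457.

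In that average over sexes and days, 3 of the 10 genes were called higher (Cyb5a, Pgrmc1 and Cyb5r3), where 8.27% of all genes were. Another 3 were called lower (Chka, Pemt and Pcyt2), where 9.42% of all genes were. The median change of the 10 genes was 0.003, beside -0.01 over all genes tested.

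**Figure D3:**
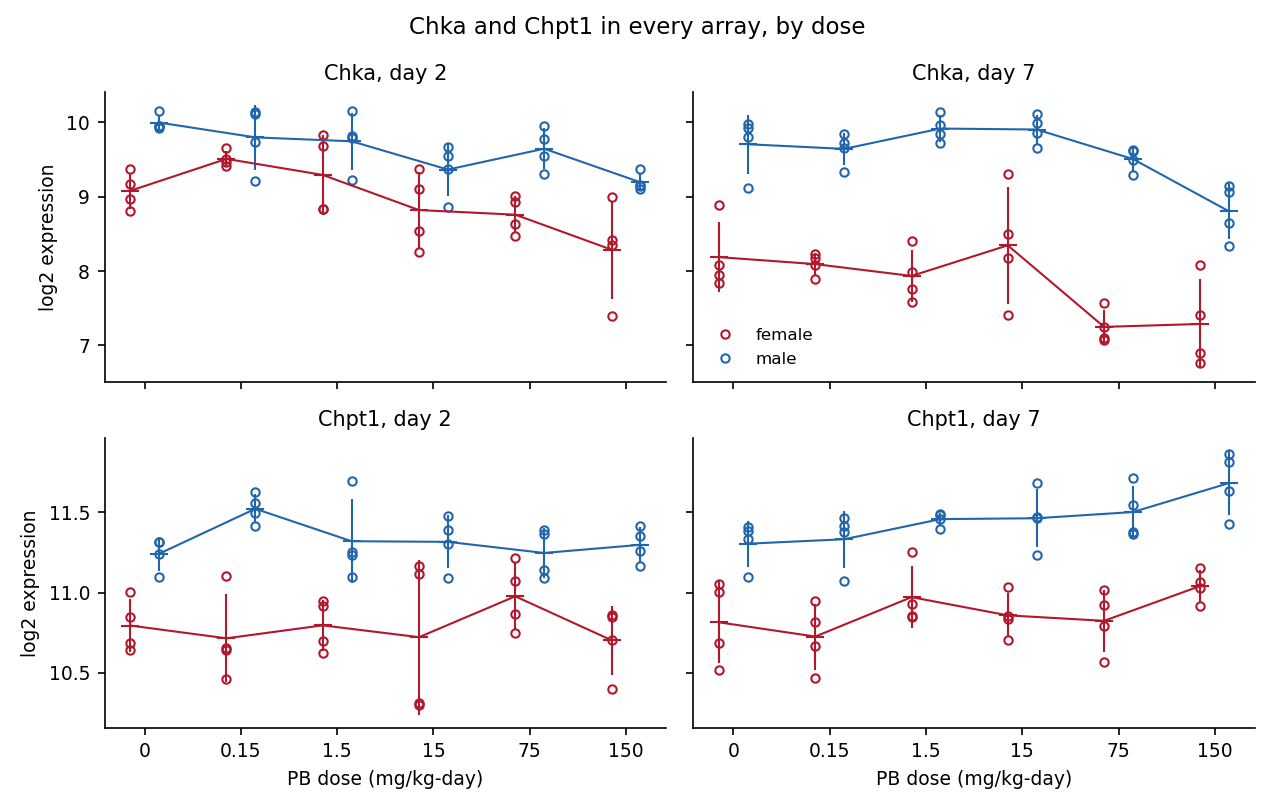
Log2 expression (vertical axis) of Chka (top) and Chpt1 (bottom) on each array against dose in mg/kg-day (evenly spaced steps), on day 2 (left) and day 7 (right), females red and males blue; horizontal ticks are means of 4 arrays, bars 1 SD. Female arrays lie below male arrays for both genes at most doses, with a difference of means in Chka from -2.26 to -1.51 on day 7.

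Below 150 mg/kg-day, calls were few. At 75, Cyb5a in females on day 2 was the 1 call among the 10 genes, where 0.451% of all genes were called. Its levels there were 13.85, 13.94, 13.91 and 13.92, all above the controls, a change of 0.23 (limma adjusted p = 0.0025). At 75 no gene of the 10 was called in females on day 7 (0.764% of all genes), in males on day 2 (0.44%) or in males on day 7 (0.247%). The nearest was Chka in females on day 7, where levels of 7.25, 7.57, 7.10 and 7.07 at 75 all lay below the controls, a change of -0.94 (adjusted p = 0.0649). Cyb5a arrays at 75 were also all above the controls in both sexes on day 7, with changes of 0.13 in females and 0.10 in males that were not called. In males on day 2 the Cyb5a change at 75 was 0.11, and 0.15 without the array that goes against its label there.

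At 15, 0 of the 10 genes were called in any sex and day, where 0.022% of all genes were called in females on each day, 0.0385% in males on day 2 and 0.011% in males on day 7. At 1.5 and at 0.15, 0 of the 10 were called, and 0% of all genes were, except 0.0055% in males on day 7 at 0.15. Changes of Cyb5a at 15 ran from 0.03 to 0.10, and those of Pgrmc1 from -0.003 to 0.04. The highest Cyb5a change, in males on day 2, was 0.05 without the array whose Cyp2b10 goes against its label. Chka at 15 ran from -0.63 in males on day 2 (-0.69 without that array) to 0.20 in males on day 7.

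A test for a linear trend over the rank of the 6 doses, which uses all 24 arrays of a sex and day, called more. Among females on day 2 it called 4 of the 10 genes, where 8.73% of all genes were called. It called 3 in females on day 7 (4.35%), 3 in males on day 2 (6.04%) and 2 in males on day 7 (4.46%). Cyb5a and Pgrmc1 rose with dose in all 4. A slope is fitted over all 6 doses and does not mean a change at every step. In males on day 7, Cyb5a averaged 13.74 at 0, 13.69 at 0.15, 13.83 at 75 and 13.96 at 150. The fitted slope of Cyb5a was 0.06 per dose step in females on day 2 (limma adjusted p = 3.53e-08) and 0.05 in the other 3 combinations. That of Pgrmc1 was 0.04 per step in females on each day and 0.03 in males, with adjusted p from 4.67e-05 to 0.00174. The male day 7 trend of Pgrmc1 was not called with only the same sex and day in the fit (adjusted p = 0.0541).

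Chka fell with dose by 0.19 per step in females on day 2 (limma adjusted p = 0.00169) and on day 7 (adjusted p = 0.00417). With the mean of all its probe sets neither female slope was called, at -0.09 on day 2 (adjusted p = 0.384) and -0.13 on day 7 (adjusted p = 0.187). In males its slopes were both -0.14, called on day 2 (adjusted p = 0.0461) and not on day 7 (adjusted p = 0.0506). The male day 2 call was lost without any 1 of 16 of the 24 arrays, with limma adjusted p up to 0.099. It was also lost with array medians centred, with the mean of all probe sets, with every probe set tested, and with an intensity trend and robust prior. Under those settings its adjusted p ran up to 0.547. The day 7 slope was called without any 1 of 5 arrays, and without other single arrays its adjusted p ran up to 0.146. Pemt fell by 0.04 per step in females on day 2 (adjusted p = 0.0311). That call was lost without array 1 or 4 at 0, array 1 at 0.15, array 2 at 75, or array 2 or 4 at 150, with adjusted p from 0.0521 to 0.127. It was also lost with array medians centred and with only the same sex and day in the fit, with limma adjusted p up to 0.0767.

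Whether the change at 150 depended on sex or on day was tested by contrasts in the same fit. For females against males, 0 of the 10 genes differed on day 2, where 0.0055% of all genes did, and 0 on day 7, where 0.0879% did. For day 7 against day 2, 0 differed in females (0.874% of all genes) and 0 in males (0.132%). The smallest limma adjusted p was 0.537, for Pcyt1a in females, whose change was 0.47 higher on day 7. For Cyb5a the 4 differences lay between -0.05 and 0.02, with 95% intervals within -0.17 and 0.15. For Chka they lay between -0.11 and 0.01. Their 95% intervals together spanned -0.85 to 0.76. With 4 arrays a group, differences nearly as large as the change itself were thus not excluded.

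At dose 0, Chka was lower in females than in males. On day 2 the levels were 9.37, 8.81, 9.17 and 8.97 in females, against 9.96, 9.92, 9.95 and 10.16 in males. On day 7 they were 8.88, 8.09, 7.94 and 7.84 in females, against 9.93, 9.80, 9.98 and 9.12 in males. All females lay below all males on both days. Chka was 1.89-fold lower in females on day 2 (limma adjusted p = 0.0442) and 2.86-fold lower on day 7 (adjusted p = 2.93e-05). The day 2 call was lost without any 1 of 7 of the 8 arrays (female array 1 was the exception), with adjusted p from 0.0672 to 0.135.

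Chpt1 was also lower in females at dose 0, by 0.49 on day 7 (limma adjusted p = 0.0181), with levels of 11.001, 10.69, 11.05 and 10.52 in females, against 11.41, 11.38, 11.10 and 11.33 in males. That call was lost without female array 2 or 4 or male array 1, with adjusted p from 0.0607 to 0.116. On day 2 its difference was -0.45 (adjusted p = 0.0759). Of the 10 genes, 1 was called on day 2, where 2.06% of all genes were, and 2 on day 7, where 6.71% were.

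The sex gap in the means of Chka and Chpt1 was seen at every dose, though the sexes were tested at dose 0 only. Among the 12 combinations of dose and day, the Chka mean was lower in females in 12, and all 4 females lay below all 4 males in 9; the gap ran from -2.26 to -0.29. For Chpt1 the mean was lower in females in 12 and the groups did not overlap in 10. The Chka groups overlapped on day 2 at 0.15, 1.5 and 15, and the Chpt1 groups on day 2 at 15 and 75. Cyb5r3 and Pgrmc1 means were lower in females in 12 as well, by up to 0.29 and 0.09. Pgrmc2 means were lower in 11 and Pcyt2 means in 10. Cept1 went the other way, with 1 of 12 differences below 0. Cyb5a, Pemt and Pcyt1a had 3 of 12 differences below 0 each. The share of all genes with such an order was not counted.

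Days were compared at dose 0 only after the values had been seen. Chka in females averaged 8.19 ± 0.48 on day 7 and 9.08 ± 0.24 on day 2 (SD, n = 4 each), a difference of -0.89 that was not called (limma adjusted p = 0.237). None of the 10 genes was called for day 7 against day 2, in females (0.0165% of all genes) or in males (0%). In males Chka differed by -0.29 between the days (adjusted p = 0.815).

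Of the 10 genes, 5 had more than 1 probe set, and these did not always move together. Both dimmer probe sets of Chka also had lower levels in males on day 7 at 150, by -1.46 and -1.31, and the first was called when all probe sets were tested (limma adjusted p = 0.0257). On day 2 in females they showed 0.03 and -0.005, against -0.79 for the brightest. In males on day 2 they showed -0.29 and -0.13, against -0.80 for the brightest. With the mean of all its probe sets, Chka in females on day 7 was not called (adjusted p = 0.273). At dose 0 on day 7 the 3 probe sets of Chka differed between females and males by -1.52, -1.76 and -1.91, and all were called.

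Of the 4 probe sets of Cyb5r3, the third in brightness was called higher in males on day 2, by 0.65 (limma adjusted p = 0.016), while the brightest stood at 0.14 there. The 4 probe sets of Pcyt1a fell into pairs on day 2 in females, with changes of -0.40 and -0.39 for the brightest and the dimmest, and 0.19 and 0.24 for the others. None of these was called. The second probe set of Chpt1 was called where the brightest was not: higher at 150 in the average over sexes and days, by 0.21 (limma adjusted p = 0.025), and lower in females at dose 0 on day 2, by -0.55 (adjusted p = 0.0184). Which transcripts the probe sets of a gene read is not analysed here. Cyb5a, Pgrmc1, Pcyt2, Pemt and Cept1 had 1 probe set each.

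**Figure D4:**
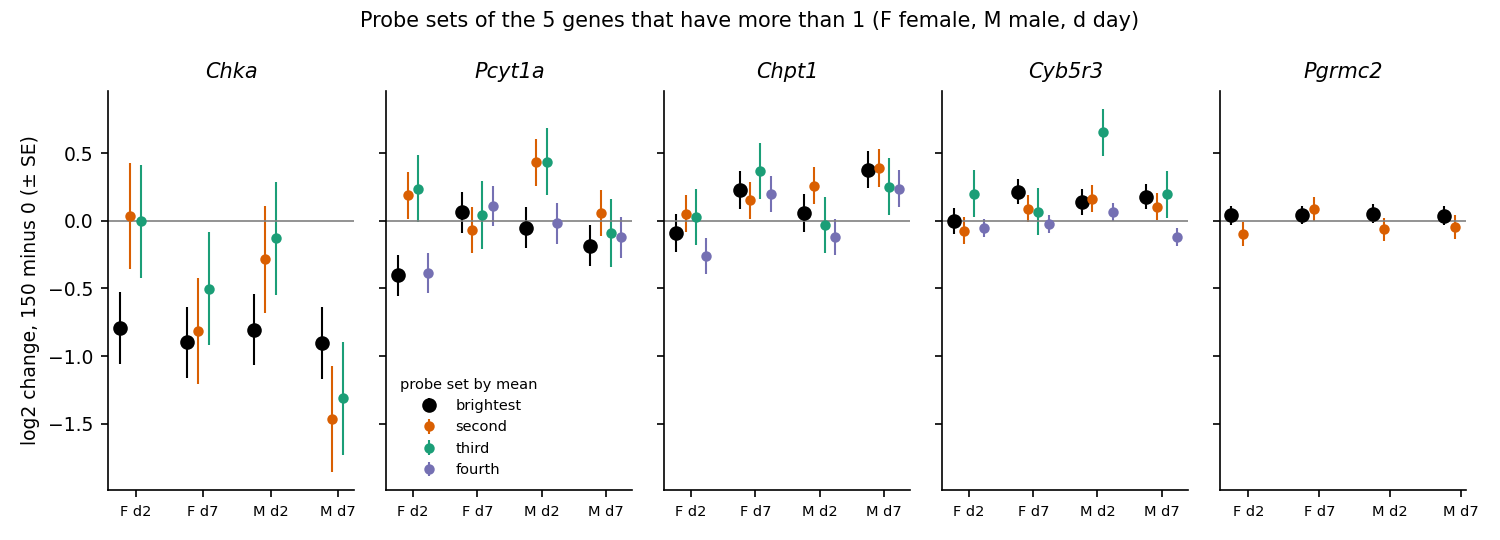
Log2 change at 150 minus 0 mg/kg-day (vertical axis, bars 1 SE) for every probe set of the 5 genes with more than 1, in females (F) and males (M) on day 2 (d2) and day 7 (d7); black is the brightest probe set, which stands for the gene. The dimmer Chka probe sets lie near 0 in females on day 2 and at -1.46 and -1.31 in males on day 7.

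The promoters of Chka, which fell, and Pgrmc1, which rose, are shown because both genes changed in these livers and both matched a RefSeq start. They cover 250 bases before the annotated start to 50 after it in RefSeq's mouse build GRCm38.p6, on the plus strand at chr19:3851523-3851822 for Chka and chrX:36597943-36598242 for Pgrmc1. Capitals mark the GC box GGGCGG and the CCAAT box CCAAT on either strand, overlapping matches included.
Chka: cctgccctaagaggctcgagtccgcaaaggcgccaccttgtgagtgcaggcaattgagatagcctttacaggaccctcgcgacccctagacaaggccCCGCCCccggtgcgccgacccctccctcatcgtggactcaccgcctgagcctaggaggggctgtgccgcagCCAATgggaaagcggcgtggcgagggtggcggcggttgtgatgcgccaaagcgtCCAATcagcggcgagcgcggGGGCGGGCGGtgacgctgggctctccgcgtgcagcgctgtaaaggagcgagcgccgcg
Pgrmc1: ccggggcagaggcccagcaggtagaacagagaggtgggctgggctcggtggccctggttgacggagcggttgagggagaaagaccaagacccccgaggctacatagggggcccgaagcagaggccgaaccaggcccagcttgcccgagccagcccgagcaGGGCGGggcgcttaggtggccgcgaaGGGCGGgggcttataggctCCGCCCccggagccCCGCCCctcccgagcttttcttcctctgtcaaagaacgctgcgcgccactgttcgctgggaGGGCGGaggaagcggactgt

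Both windows are rich in G and C, at 68.7% for Chka and 69% for Pgrmc1, with 33 and 24 CpG dinucleotides. Chka holds 3 GC boxes and 2 CCAAT boxes, and Pgrmc1 holds 5 GC boxes and 0 CCAAT boxes. Of 32851 promoter windows of this length, 35.7% held a GC box and 37.4% a CCAAT box. The nuclear receptor half-site AGGTCA was in neither window, and 16.3% of all windows held it. These matches describe letters only. Of the 10 genes, 7 matched a promoter in the RefSeq table.

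For the 3 members called at 150 in a single sex and day, the genes most like them over the 24 group means were named by Pearson r, as a description of means that share arrays. For Cyb5a they were Nmt2 (r = 0.95), Fndc5 (0.946) and Cpe (0.945). Fndc5 and Cpe were dim, with mean levels of 6.11 and 5.48, beside 13.80 for Cyb5a. For Pgrmc1 they were Pla2g6 (0.949), Gsta2 (0.941) and Gstm1 (0.94). For Chka they were Nfil3 (0.966), Tspan33 (0.962) and Ric8b (0.962).

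Other genes around the members were read from 8 lists with 111 genes, 102 of them measured, for the 4 comparisons at 150. Calls on list genes were not recomputed under other settings or without single arrays. Among 22 measured genes of phospholipid synthesis, beside the members, 1 rose in females on day 2 and 1 in males on day 2, in both cases Cds2, which makes CDP-diacylglycerol (1.48-fold and 1.51-fold). Agpat2, an acyltransferase that makes phosphatidic acid, fell in females on day 7 (1.51-fold) and males on day 2 (1.26-fold). The male call lay at the threshold (limma adjusted p = 0.0495). The list's median change lay between -0.03 and 0.04, beside -0.03 to 0.003 over all genes tested. Among 14 genes of phospholipid remodelling, Pla2g6, a calcium-independent phospholipase A2, rose in all 4 comparisons, by 1.29-fold to 1.40-fold, and Pld1, a phospholipase D, rose in males on day 2. The Pla2g6 call in females on day 2 lay close to the threshold (limma adjusted p = 0.0481).

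Among 12 genes that supply choline and methyl groups, 3 fell in females on day 2 and 4 in males on day 2, and none was called on day 7. Bhmt, which moves a methyl group from betaine to homocysteine, fell 1.21-fold in females and 1.29-fold in males on day 2. Dmgdh, the dimethylglycine dehydrogenase, fell 1.32-fold and 1.36-fold in the same 2 groups. The list's median was -0.15 in females and -0.24 in males on day 2, beside -0.03 and -0.02 over all genes tested. On day 7 it was 0.008 in females and -0.11 in males.

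Among 8 measured genes of electron supply, Pgd and Me1, which both make NADPH, rose on day 2 in both sexes, Pgd 1.63-fold and Me1 1.54-fold in females. The Me1 call in females lay at the threshold (limma adjusted p = 0.0497). None of the list was called on day 7. The P450 reductase gene Por is not analysed here. Among 8 relatives and partners of Pgrmc1, Cyb5d2 fell in females on day 2 (1.30-fold) and no other call was made. Among 9 genes whose enzymes draw electrons from cytochrome b5, Fads1, a fatty acid desaturase, rose 1.29-fold in males on day 2, and no other was called.

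Among 21 genes that shape the ER or mark it for autophagy, Reep4 (1.58-fold) and Reep1, both of a family of ER-shaping proteins, rose in females on day 2. Reep1 averaged 5.47 at 150 and 4.70 at 0, near and below the medians of the arrays, so no fold is given for it. Rtn3, a reticulon, which bends ER tubules, rose on day 7 in females (1.18-fold) and males (1.17-fold). The medians of this list lay between -0.03 and 0.06. Of the 8 genes known to respond with the P450 enzymes, 4 or 5 rose in each comparison, among them Cyp2c55, which rose by between 57.8-fold and 100.5-fold.

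Markers of other cells moved in some of these comparisons. All 3 measured markers of dividing cells (Mki67, Top2a and Birc5) rose on day 2 in both sexes, with a mean level of 7.04 to 9.46 at 150, against 4.66 to 6.84 at 0, in females, and 6.99 to 8.06 at 150, against 4.92 to 5.49 at 0, in males. On day 7, 0 of the 3 were called. Their mean level in females was then 5.71 to 5.91 at 150, against 4.64 to 6.59 at 0. In males on day 7 it was 5.49 to 6.36 at 150, above the 4.44 to 5.15 at 0. Kupffer cell markers were called higher in males on day 7 (2 of 6), with a mean level of 9.15 to 9.70 at 150, against 8.28 to 8.91 at 0. Of 6 stellate cell markers, 3 fell in males on day 7, with a mean level of 8.18 to 8.37 at 150, against 8.46 to 8.78 at 0. Another of the 6, Colec10, fell on day 2 in each sex. The mean level of the 6 was also lower at 150, without overlap, in females on day 2 (8.55 to 8.66, against 8.90 to 8.95). The same held in females on day 7 (8.61 to 8.75, against 8.91 to 9.01). It also held in males on day 2 (8.39 to 8.52, against 8.57 to 8.79). Of 6 sinusoidal endothelial markers, 3 fell in females on day 2 and 1 in males on each day. Of 5 measured hepatocyte markers, Apoa1 fell in females on day 7, and the list's mean level on single arrays lay between 14.00 and 14.25 at 150, and between 14.01 and 14.25 at 0. In males on day 2 that level was 14.11 to 14.18 at 150, below the 14.19 to 14.25 at 0. In every other comparison the ranges overlapped. Among markers of blood cells, S100a8 of neutrophils rose in females on day 2 and males on day 7, Ptprc of leukocytes rose in males on day 7 and Alas2 of erythroid cells in females on day 7. None of 4 measured bile duct markers was called. The part of these shifts in the results for the 10 genes was not tested.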

How the data were processed

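The deposited table holds log2 expression values for 45101 probe sets, which the authors had normalised by a method not given in the sources used here. Per the labels' protocols, Trizol was used for extraction, and amplification and biotin labelling started from 4 μg of RNA. After 64 control probe sets were left out, 34945 probe sets had 1 gene symbol, 932 several and 9160 none, and only the first kind was used. The 24 group means were estimated in 1 model of 96 arrays by limma, version 3.58.1, under R 4.3.3 with data.table, version 1.17.8 (72 residual and 4.39 prior degrees of freedom). All p-values are two-sided and Benjamini-Hochberg adjusted, over 18193 genes in the main analysis, with a threshold of 0.05 unless stated. Those of single probe sets were adjusted over the 34945 probe sets. With dim genes left out, the adjustment was over the genes kept. The fit was tested on simulated data. Figures were drawn with matplotlib 3.10.9.

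The 10 genes and the lists were chosen with earlier results of these data known. Named list genes were up to 4 per list with the smallest adjusted p among those called at 150, and the 3 genes most correlated with each member called at 150 in a single sex and day. Alternatives covered normalisation, dim genes, the choice of probe set, the arrays in the fit, the prior, array weights, a replicate block, the threshold and each array left out. Arrays of equal number did not pair: of 16 pairs of arrays at 150 and 0 that share sex, day and number, 2 had a correlation of deviations from the group mean over 0.1, and the 16 ran from -0.161 to 0.139. No 2 arrays held identical values. Arrays give no counts, and 4 per group limit the precision.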

Additional observations from a re-analysis of the deposited data

Results flagged for a closer look

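In 12 of 240 groups of 4 arrays, 1 array lay far from the other 3 of its group for one of the genes, by Dixon's test; chance gives about 1 in 20 groups. In Cyb5a, array 1 of males at 15 on day 2 stood at 13.97 (the others 13.73 to 13.76), array 4 of males at 15 on day 7 at 13.87 and array 4 of females at 1.5 on day 2 at 13.74. The first of these is an array whose Cyp2b10 level goes against its label. In Pgrmc1, array 1 of females at 150 on day 2 stood at 13.98 (the others 13.88 to 13.89). In Chka, array 4 of males at 0 on day 2 stood at 10.16. In Pcyt1a, array 3 of males at 0.15 on day 7 stood at 8.03 (the others 9.01 to 9.10), array 2 of males at 150 on day 7 at 8.21 and array 4 of males at 75 on day 2 at 8.74. In Pcyt2, array 4 of females at 0.15 on day 2 stood at 11.44 and array 3 of males at 1.5 on day 2 at 11.37. In Cept1, array 1 of females at 0 on day 2 stood at 10.98 and array 1 of males at 0 on day 7 at 10.97.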

How the results depend on the processing

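No result changed direction while called. The number of the 10 genes called was computed 358 times under other settings. It was unequal in 56, of which 40 stayed within 1.5 times, 39 of them by 1 gene (20 counts were higher and 20 lower). The other 16, past 1.5 times, were these. In females on day 7 at 75 it was 0, and 1 with quantile normalisation or with an intensity trend and robust prior, and 2 with dim genes left out. With only the same sex and day in the fit, it was 0 in females on day 2 at 75 (1 with all arrays), 1 in females on day 2 at 150 (2 with all arrays) and 1 in females on day 7 at 150 (3 with all arrays). At a threshold of 0.01 it was 1 in males on day 7 at 150 (3 at 0.05). For females against males at dose 0 on day 2, it was 1, and 0 with medians centred, with the robust prior or at 0.01, and 2 with dim genes left out, with the mean of all probe sets or with array weights. On day 7 it was 2, and 1 with the mean of probe sets or at 0.01. With a trend linear in mg/kg-day, 4 were called in males on day 7 (2 by rank). Leaving out 1 array gave 2 to 3 calls in females at 150 on each day, 5 to 6 in the average over sexes and days, 3 to 4 for the trend in females on each day, 2 to 3 for the trend in males on day 2, 0 to 2 in females on day 7 at 75, 1 to 4 in males on day 7 at 150, 2 to 4 for the trend in males on day 7, 0 to 1 for the sexes at dose 0 on day 2 and 1 to 2 on day 7. Pgrmc1 with only the same sex and day was called at 150 in males on day 2 and in no other group (adjusted p from 0.065 to 0.123). Numbers of arrays did not pair; with a replicate block, the counts at 150 were 2 and 3 in females and 2 and 3 in males on days 2 and 7, and the 1 count that differed was the trend in males on day 7, 3 against 2 without it, where Chka was called (limma adjusted p = 0.046). Leaving out the 2 male day 2 arrays whose Cyp2b10 goes against their labels, an alternative chosen after seeing the data, changed no call. The cause of these differences was not tested. The settings may also change how many of all genes are called. That share is not given here, so a higher or lower count is not a result about the 10 genes.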
